A study of Mus musculus with 11 samples.

Results

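The genes described here encode subunits of nuclear corepressor, histone deacetylase and Polycomb complexes. They were taken by name from a list of 36 genes. Of these, 35 were measured by a probe that carries their symbol alone, of 19938 genes in all, and Ncor1 had no such probe and is not analysed here. Where a gene had several probes, the probe with the highest mean log2 value over the 11 arrays stood for it. By complex, 4 genes belong to the deacetylase and histone-binding core, 13 to Sin3, 8 to NuRD, 2 to CoREST, 2 to NCoR and 5 to Polycomb repressive complex 2 (PRC2). Phf13, a PHD finger gene, was kept apart.

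The samples came from E8.5 embryos of outbred CD1 mice, with no mutation or treatment named in any group. The groups were neural crest (n = 5 arrays), paraxial mesoderm (n = 3) and neuroepithelium (n = 3), cut from frozen sections by laser capture and amplified before hybridisation to Affymetrix mouse ST arrays. No label gives the embryo or the number of cells behind an array, although the series speaks of single cells. A p-value here thus rests on the spread between these arrays, which may be technical. Each value is a deposited ratio of the array to a reference value of the same probe, so a ratio gives no expression level, and ratios of different genes are not compared as levels. With 3 to 5 arrays per tissue, precision is limited by their number.

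Histone deacetylases remove acetyl groups from histone tails and, as catalytic subunits of larger complexes, lower transcription where a DNA-binding factor brings them in. Hdac1 and Hdac2 work with the histone-binding proteins Rbbp4 and Rbbp7 in Sin3 and NuRD, Rbbp4 and Rbbp7 also belong to PRC2, and the deacetylases also work with the demethylase Kdm1a in CoREST. Hdac3 works in NCoR. PRC2 methylates a lysine on the tail of histone H3 and keeps developmental genes silent. Snail factors are known to recruit deacetylase complexes to the genes they repress, and Ezh2 is required in mouse neural crest for the skeleton of the face.

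The tissue labels were checked against marker lists, with a marker counted as high at 4 times its reference or more. The 8 neural crest markers had 1 to 5 high members on the crest arrays, 0 on the mesoderm arrays and 0 to 1 on the neuroepithelium arrays. Snai1 was high on every crest array and was the only high one on crest arrays 1 and 4. Sox10 was high on crest array 5 alone, and Foxd3, Tfap2a and Ets1 were high on no array. No paraxial mesoderm marker was high on any array, and 1 neuroepithelium marker (Nes, on crest array 3) was high, so these markers do not separate the mesoderm and neuroepithelium arrays. Of 9 surface ectoderm markers, 5, 7 and 4 were high on neuroepithelium arrays 1, 2 and 3, and 5 on mesoderm array 2, and Krt8 alone was high on crest array 3 and mesoderm array 3. All 6 measured markers of primitive erythrocytes were high on mesoderm array 1 and on no other array. Of 4 measured notochord markers, Foxa2 and Nog were high on mesoderm array 3, and no endothelial marker was high on any array. Of 9 measured cell cycle genes, 0 to 3 were high on an array, and 2 were low on each of crest array 1, mesoderm array 3 and neuroepithelium array 2. The share of all genes that were high ran from 1.91% on mesoderm array 3 to 8.11% on mesoderm array 1. The share that were low, at 0.25 of the reference or less, ran from 0.336% on crest array 5 to 2.52% on crest array 1.

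No member passed a comparison between tissues. In limma with Benjamini-Hochberg adjustment over all 19938 genes at a threshold of 0.05, the count was 0 of 35 for neural crest against neuroepithelium, 0 for neural crest against paraxial mesoderm and 0 for paraxial mesoderm against neuroepithelium. Over all genes these comparisons passed 0.0301%, 0.01% and 0.015%, and a test among all 3 tissues passed 0.0301% of genes and 0 members. At an unadjusted p under 0.05 there were 2, 3 and 2 members, against 2.79%, 2.89% and 2.48% of all genes. For the limma F test among the 3 tissues the members at an unadjusted p under 0.05 were Sinhcaf (adjusted p = 0.843) and Phf13 (adjusted p = 0.999), against 2.57% of all genes.

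**Figure D1:**
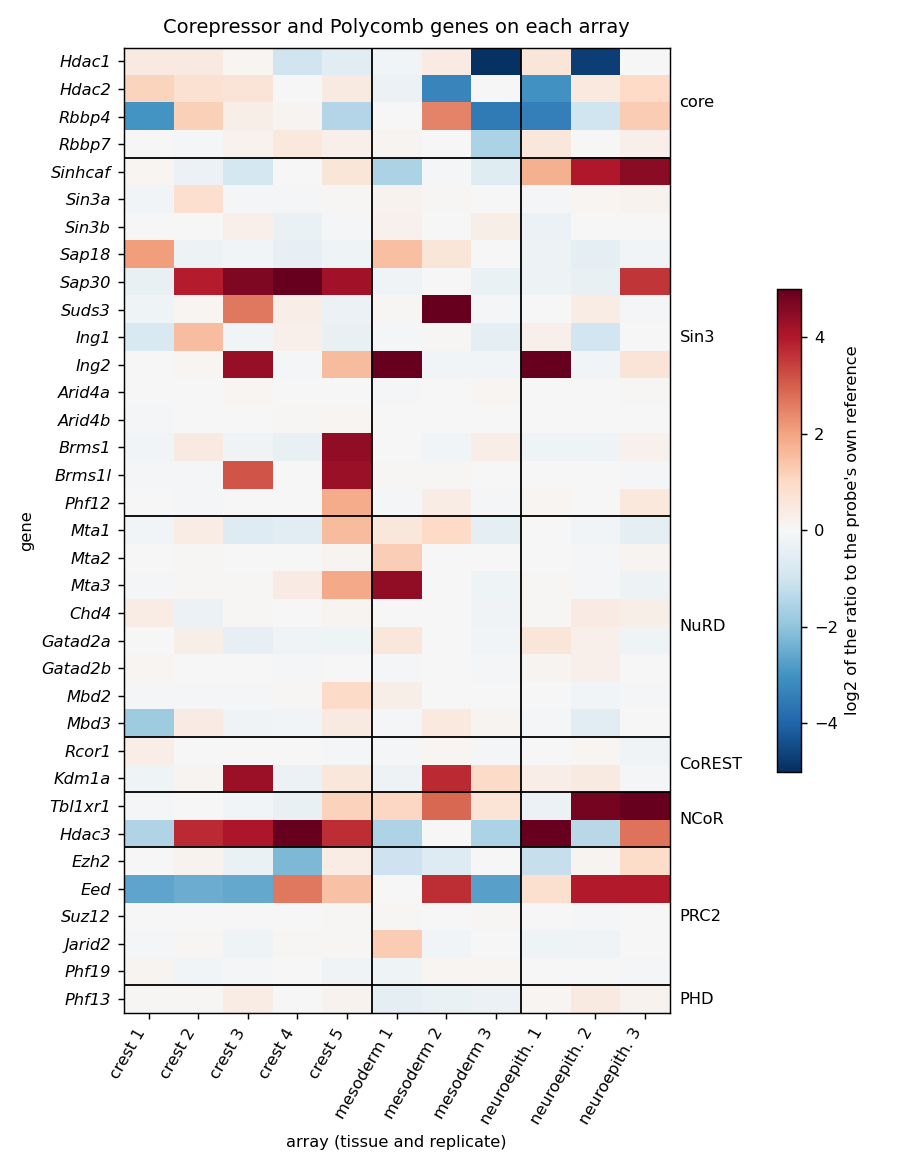
Log2 of the deposited ratio of each of the 35 measured genes (rows, by complex) on each of the 11 arrays (columns, by tissue and replicate), where 0 is the gene's own reference and colours saturate at 5 above or below it. Most cells are pale, Sap30 and Hdac3 are dark on crest arrays 2 to 5, and Sinhcaf and Tbl1xr1 are dark on neuroepithelium arrays 2 and 3.

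Many members left their reference on some array. Within 2-fold of the reference on all 11 arrays were 12 of the 35 members, where 71.8% of all genes stayed there. At 4 times the reference or more on 1 or more arrays were 13 members, against 21.7% of all genes. At 0.25 of it or less on 1 or more arrays were 5 members, against 4.77%. Rbbp4 and Eed were in both sets, so 16 members were far from their reference on some array, against 24.9% of all genes. The reference is each probe's own, and these shares are a description of the members with no test. Genes expressed on no array would also stay near their reference, and their share of all genes is not known. The rule that picks 1 probe per gene favours a probe with high ratios. Several probes were present for 6 of the 35 members, against 999 of the 19938 genes. The unused probes of Eed and Mta3 stayed within 2-fold of their reference on all 11 arrays.

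By complex, of the 13 Sin3 genes 7 were high on some array and 0 were low, where 21.7% and 4.77% of all genes were. Of the 4 core genes 3 were low on some array, and Rbbp4 among them was also high on another. In NuRD, 1 of 8 genes was high on any array and 0 were low. In CoREST 1 of 2 genes was high on some array, and in NCoR both measured genes were. In PRC2 the genes far from the reference were Eed and Ezh2, 2 of 5. These counts rest on few genes each and were not tested against each other. For most probes the reference was a middle value of 8 of these same arrays. Whether a gene read as high or as low thus depends in part on how many arrays held its larger value. The split between complexes gives no direction of regulation.

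**Figure D2:**
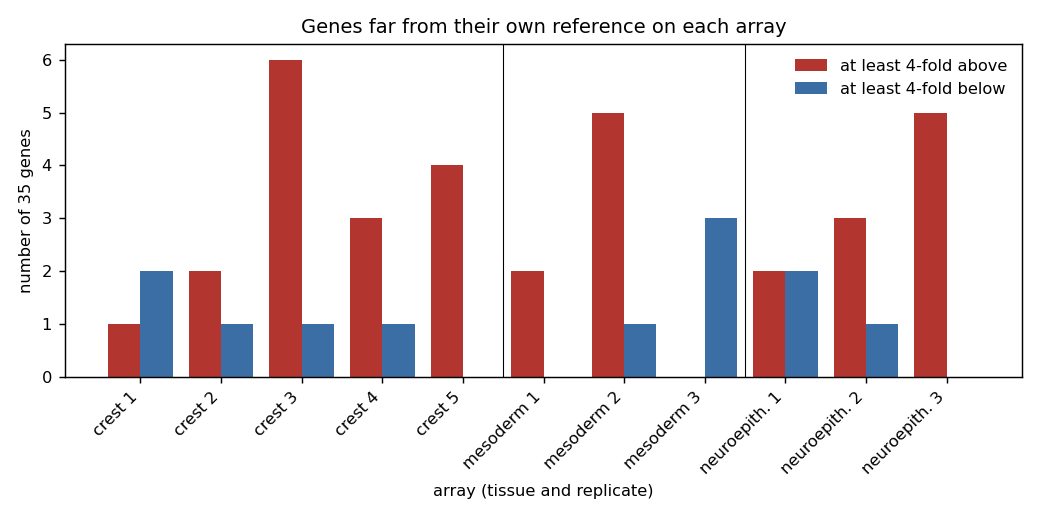
Number of the 35 genes at 4 times their own reference or more (red) and at 0.25 of it or less (blue) on each array, by tissue and replicate. The counts of high genes run from 1 to 6 on the crest arrays, 0 to 5 on the mesoderm arrays and 2 to 5 on the neuroepithelium arrays.

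Across arrays, the number of high members was 3.20 ± 1.92 (SD, n = 5) in neural crest, 2.33 ± 2.52 (n = 3) in paraxial mesoderm and 3.33 ± 1.53 (n = 3) in neuroepithelium. The number of low members was 1.00 ± 0.71, 1.33 ± 1.53 and 1.00 ± 1.00 in the same order of tissues. The tissue means lay closer together than the arrays within a tissue: crest array 3 had 6 high members and crest array 1 had 1. Of all genes, 5.34% were high on crest array 3 and 2.06% on crest array 1. By tissue, 9.14%, 6.67% and 9.52% of member values were high, against 4.56%, 4.68% and 4.07% over all genes.

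Hdac1 (probe 10516605), a class I deacetylase, stood at 1.37, 1.36, 1.07, 0.498 and 0.677 in crest, 0.909, 1.31 and 0.0326 in mesoderm, and 1.53, 0.0387 and 1.00 in neuroepithelium. It was thus between 0.498 and 1.37 on the 5 crest arrays and far below its reference on 1 array of each other tissue. A second Hdac1 probe had the same 2 low arrays, at 0.0282 on mesoderm array 3 and 0.0290 on neuroepithelium array 2. RefSeq also lists a processed copy, Hdac1-ps, and signals of near-identical copies cannot be told apart here.

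Hdac2 (probe 10362520), the close paralogue of Hdac1, had ratios of 2.15, 1.71, 1.57, 1.00 and 1.36 in crest, 0.816, 0.101 and 1.00 in mesoderm, and 0.123, 1.39 and 1.98 in neuroepithelium. Its low arrays, mesoderm array 2 and neuroepithelium array 1, were not those of Hdac1. No array was low for both paralogues, and all 5 crest arrays held both at 0.498 or above. Neither gene's tissue means passed in limma. For Hdac1 the log2 difference was 1.24 (SE 1.47, unadjusted p = 0.421) for crest minus neuroepithelium and 1.45 (SE 1.47, unadjusted p = 0.352) for crest minus mesoderm. For Hdac2 the same differences were 1.11 (SE 1.01, unadjusted p = 0.300) and 1.79 (SE 1.01, unadjusted p = 0.111), and every adjusted p was 1.00.

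Rbbp4 (probe 10516576), a WD40 protein that holds histone H4, had ratios of 0.127, 2.26, 1.24, 1.11 and 0.366 in crest, 1.00, 5.58 and 0.0868 in mesoderm, and 0.0946, 0.499 and 2.40 in neuroepithelium. Each tissue held 1 array far below the reference. Its paralogue Rbbp7 stayed between 0.333 and 1.49, with the lowest value on mesoderm array 3, where Hdac1 and Rbbp4 were low too. Mesoderm array 3 was also the array with the second largest share of low genes, at 2.27% of all genes. It also held the high notochord markers, with a summed ratio of 19.4 over 4 genes against 3.55 to 4.44 on the other arrays, and their part in these values was not tested.

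**Figure D3:**
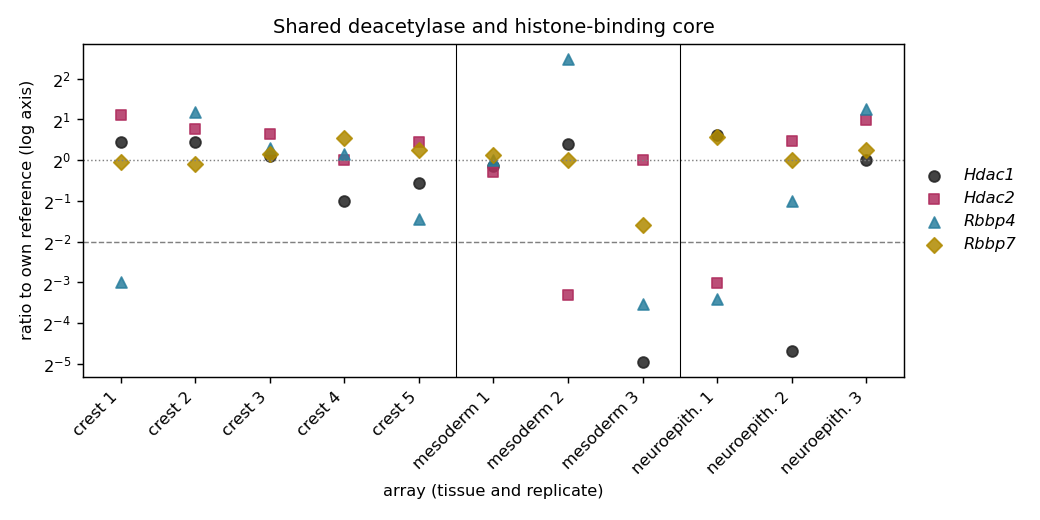
Ratio of Hdac1, Hdac2, Rbbp4 and Rbbp7 to their own references on each array, on a log axis; the dashed line is 0.25 of the reference and the dotted line the reference. Hdac1 is below the dashed line on mesoderm array 3 and neuroepithelium array 2, and Hdac2 on mesoderm array 2 and neuroepithelium array 1.

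The Sin3 gene Sinhcaf had the smallest p of the 35 members. Sinhcaf (probe 10436442), a subunit of the Sin3 deacetylase complex, stood at 1.08, 0.821, 0.548, 1.00 and 1.51 in crest, 0.331, 0.944 and 0.660 on the mesoderm arrays, and 3.42, 16.1 and 23.1 on the neuroepithelium arrays. All 3 neuroepithelium arrays were above all arrays of both other tissues. Its mean log2 ratio was -0.09 ± 0.54 (SD, n = 5) in crest, -0.76 ± 0.77 (n = 3) in mesoderm and 3.44 ± 1.46 (n = 3) in neuroepithelium.

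The crest mean of Sinhcaf lay 11.5-fold under the neuroepithelium mean (log2 difference -3.53, SE 0.63), and the mesoderm mean 18.4-fold under it (log2 difference -4.20, SE 0.71). Neither passed in limma (unadjusted p = 0.000374 and 0.000240, adjusted p = 0.582 and 0.797). Without neuroepithelium array 1, the lowest of its tissue, both passed (log2 differences -4.36 and -5.03, limma adjusted p = 0.0291 and 0.0233). Over 24 settings the adjusted p ran from these values to 1.00, and it was under 0.05 in no other setting. Leaving out array 1 removed the neuroepithelium value of Sinhcaf nearest the other tissues, so the 2 calls are not support of their own. It also raised the calls over all genes to 14 and 10, against 6 and 3 with all arrays.

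A second Sinhcaf probe ran alongside the first, at 0.546 to 1.32 in crest, 0.453 to 0.907 in mesoderm, and 2.30, 15.0 and 23.1 in neuroepithelium. Both probes carry the same RefSeq accession, and no file states whether they share sequence. The surface ectoderm markers were high on the neuroepithelium arrays too: their summed ratio over 9 genes was 7.74 to 44.2 on the crest arrays, 7.37 to 329 on the mesoderm arrays, and 280, 350 and 202 on neuroepithelium arrays 1, 2 and 3. Within neuroepithelium the order differed, with the lowest sum on array 3, where Sinhcaf was highest. Mesoderm array 2, with 5 of the 9 markers high and a sum of 329, had Sinhcaf at 0.944. The part of surface ectoderm cells in the Sinhcaf values was not tested. In captured tissue, more cells of a type and more RNA per cell cannot be told apart.

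Sap30 (probe 10578763), which bridges Sin3 and the deacetylases, stood at 0.765, 15.2, 25.5, 32.4 and 18.5 in crest, 0.880, 1.00 and 0.804 on the mesoderm arrays, and 0.833, 0.772 and 11.8 on the neuroepithelium arrays. Crest arrays 2 to 5 exceeded every array of both other tissues, and crest array 1 was the lowest of all 11. The crest mean lay 12.6-fold above the mesoderm mean (log2 difference 3.65, SE 1.34, limma unadjusted p = 0.0236, adjusted p = 1.00). Against neuroepithelium the log2 difference was 2.51 (SE 1.34, unadjusted p = 0.0934, adjusted p = 1.00). Crest array 1 also had the largest share of low genes, as given above; without it the crest minus mesoderm difference was 4.62 (limma unadjusted p = 0.000947, adjusted p = 1.00). Without any 1 of the mesoderm arrays it was 3.58 to 3.74, with a limma unadjusted p of 0.0512 to 0.0597.

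The remaining Sin3 genes that left their reference did so on 1 to 3 arrays, in different tissues. Ing2 (probe 10578615), whose PHD finger reads methylated histone H3, had ratios of 1.00, 1.07, 20.3, 0.943 and 2.96 in crest, 49.2, 0.920 and 0.911 in mesoderm, and 64.1, 0.901 and 1.57 in neuroepithelium. Suds3 (probe 10533071), which holds Sin3 and deacetylase together, had 0.856, 1.07, 6.17, 1.25 and 0.812 in crest, 1.05, 49.5 and 0.956 in mesoderm, and 1.00, 1.29 and 0.938 in neuroepithelium. Each gene was high on 1 array per tissue at most, and within 2-fold of its reference on the others except for Ing2 on crest array 5. Mesoderm array 1, where Ing2 was high, held the high erythrocyte markers, with a summed ratio of 649 over 6 genes against 5.76 to 6.68 on the other arrays; their part in the Ing2 value was not tested. Crest array 3 and neuroepithelium array 1, where Ing2 was high too, had sums of 5.91 and 5.87.

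Brms1, first known as a metastasis suppressor, and its paralogue Brms1l were high on crest arrays alone. Brms1 (probe 10460517) had 0.903, 1.36, 0.879, 0.781 and 21.7 in crest, 1.00, 0.921 and 1.28 in mesoderm, and 0.860, 0.869 and 1.17 in neuroepithelium. Brms1l (probe 10395831) had 0.951, 0.960, 8.74, 1.00 and 19.8 in crest, 1.05, 1.04 and 0.980 in mesoderm, and 1.00, 0.993 and 0.968 in neuroepithelium. Both were high on crest array 5, where 7.52% of all genes were high. The crest minus neuroepithelium difference was 0.90 (SE 1.01, limma unadjusted p = 0.395) for Brms1 and 1.48 (SE 1.03, limma unadjusted p = 0.187) for Brms1l. Sap18 (probe 10415642), a ubiquitin-fold subunit, had 4.23, 0.845, 0.898, 0.749 and 0.867 in crest, 2.87, 1.52 and 1.00 in mesoderm, and 0.848, 0.728 and 0.909 in neuroepithelium. All 3 mesoderm arrays were above all 3 neuroepithelium arrays for Sap18 (log2 difference 0.99, SE 0.65, limma unadjusted p = 0.166).

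Sin3a, the main scaffold, stayed between 0.920 and 1.81, and its paralogue Sin3b between 0.801 and 1.21. Arid4a (0.928 to 1.08) and Arid4b (0.967 to 1.07), which bind the retinoblastoma protein, stayed near their references on every array. Ing1 reached 2.91 on crest array 2 and Phf12 reached 3.61 on crest array 5. A flat ratio can come from equal expression on all arrays or from none.

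In NuRD, Chd4, the ATP-dependent remodeller, stayed between 0.823 and 1.32, Gatad2a between 0.762 and 1.53 and Gatad2b between 0.965 and 1.21. For Chd4 the 3 mesoderm arrays (0.974, 1.00 and 0.894) were all below the 3 neuroepithelium arrays (1.04, 1.32 and 1.23), by a log2 difference of -0.32 (SE 0.15, limma unadjusted p = 0.0700). Mbd2, which binds methylated DNA, reached 1.93 on crest array 5, and Mbd3, its paralogue, had its 1 value outside 2-fold on crest array 1 (0.290).

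The Mta scaffolds of NuRD were highest on single arrays. Mta3 (probe 10447167) had 0.954, 1.06, 1.03, 1.33 and 3.74 in crest, 21.4, 1.00 and 0.870 in mesoderm, and 1.05, 0.960 and 0.846 in neuroepithelium. Its value of 21.4 was on mesoderm array 1, where Mta2 also had its highest ratio (2.38) among the 11 arrays. Mta1 reached 3.01 on crest array 5 and 2.01 on mesoderm array 2. A second Mta3 probe stayed between 0.897 and 1.18 on all arrays, with 0.911 on mesoderm array 1, so the high value rests on 1 of 2 probes. The erythrocyte markers were high on that array, and their part in it was not tested.

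In CoREST, the scaffold Rcor1 stayed between 0.892 and 1.27. Kdm1a (probe 10517465), the demethylase of the complex, had 0.854, 1.10, 19.5, 0.808 and 1.46 in crest, 0.849, 13.4 and 1.95 in mesoderm, and 1.25, 1.36 and 0.929 in neuroepithelium. The 2 arrays high for Kdm1a, crest array 3 and mesoderm array 2, were also the 2 arrays high for Suds3. Its tissue means lay within their errors of each other (crest minus neuroepithelium 0.67, SE 1.19; crest minus mesoderm -0.60, SE 1.19; mesoderm minus neuroepithelium 1.27, SE 1.33).

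The measured NCoR genes were both far from their references on several arrays. Hdac3 (probe 10458461), the catalytic subunit, stood at 0.357, 13.2, 16.3, 34.5 and 12.9 in crest, 0.342, 1.00 and 0.334 on the mesoderm arrays, and 35.8, 0.378 and 6.58 on the neuroepithelium arrays. Its values lay either at 6.58 and above, on 6 arrays, or at 1.00 and below, on 5. Crest arrays 2 to 5 and neuroepithelium array 3 were high for both Hdac3 and Sap30. Neuroepithelium array 1 was high for Hdac3 and not for Sap30.

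The crest mean of Hdac3 lay 16.6-fold above the mesoderm mean (log2 difference 4.06, SE 1.74, limma unadjusted p = 0.0457, adjusted p = 1.00). Crest array 1 overlapped the mesoderm arrays, and without it the difference was 5.18 (limma unadjusted p = 0.00555, adjusted p = 1.00). Without any other single crest or mesoderm array it was 3.53 to 4.58, with a limma unadjusted p of 0.0603 to 0.112. Crest and neuroepithelium means were 0.85 apart (SE 1.74, limma unadjusted p = 0.636). For mesoderm minus neuroepithelium the log2 difference was -3.20 (SE 1.95, limma unadjusted p = 0.136).

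Tbl1xr1 (probe 10491056), a WD40 subunit that exchanges corepressors for coactivators, had 0.930, 1.00, 0.914, 0.771 and 2.20 in crest, 2.03, 7.33 and 1.61 in mesoderm, and 0.810, 27.6 and 32.6 in neuroepithelium. Its 2 highest arrays, neuroepithelium arrays 2 and 3, were also the 2 highest arrays of Sinhcaf. The crest mean lay 8.37-fold under the neuroepithelium mean (log2 difference -3.07, SE 1.16, limma unadjusted p = 0.0275, adjusted p = 1.00). A second Tbl1xr1 probe was near its reference on those arrays (1.02 and 0.959) and high on crest array 3 (10.9), so the probes disagree. The mean of both probes gave -1.17 (limma unadjusted p = 0.120). Without neuroepithelium array 1 the single-probe difference was -4.80 (limma adjusted p = 0.0690). Without array 2 it was -2.26 (limma unadjusted p = 0.118), and without array 3 it was -2.14 (limma unadjusted p = 0.124).

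**Figure D4:**
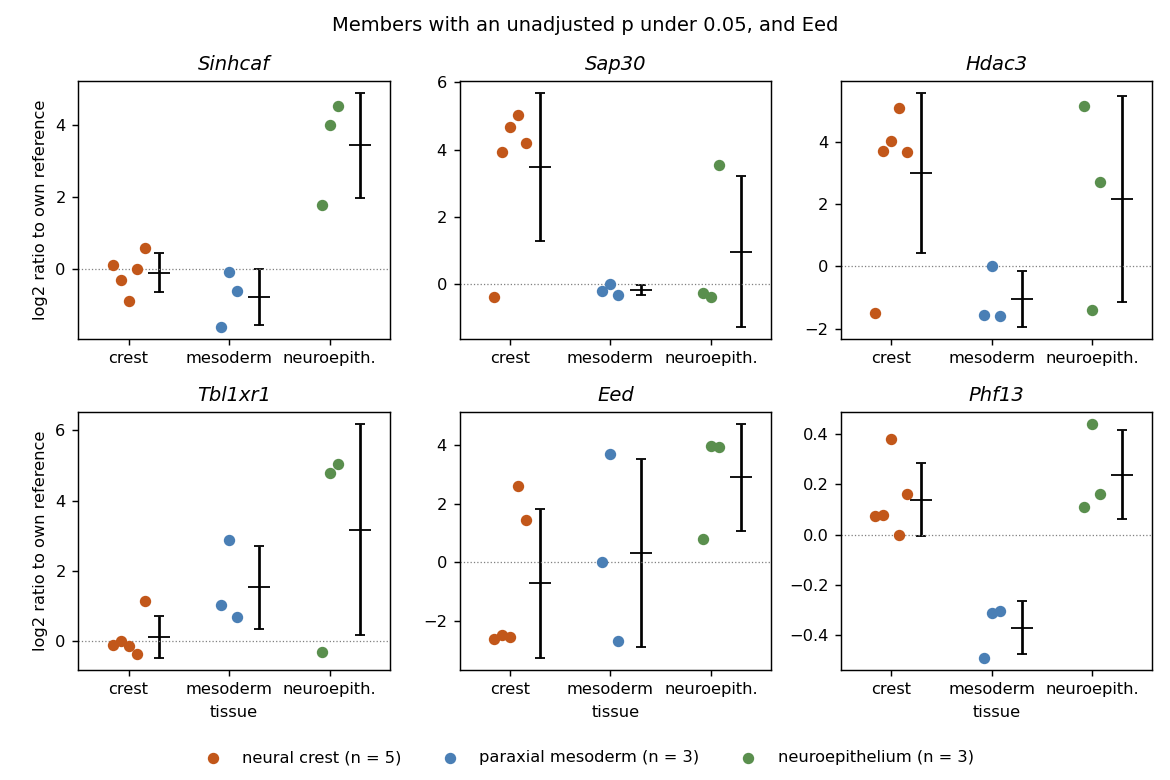
Log2 ratio to the gene's own reference for the 5 genes with an unadjusted p under 0.05 in some comparison and for Eed, which was added after its values were seen; points are arrays, and black marks give the mean and SD of each tissue. Vertical scales differ between panels, the 3 neuroepithelium points of Sinhcaf sit above all others, and crest array 1 sits apart from the other crest points for Sap30 and Hdac3.

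The 250 bases before and 50 after the annotated start are shown for Sap30, Sinhcaf and Tbl1xr1, because Sap30 was high on the crest arrays listed above and Sinhcaf and Tbl1xr1 on the same 2 neuroepithelium arrays. The sequences are RefSeq's for build GRCm38.p6, which held such windows for 30 of the 36 listed genes. Capitals mark the GC box GGGCGG, the E-box CACGTG bound by Myc factors and CAGGTG, an E-box bound by Snail factors, each searched on both strands. The minus-strand windows lie at chr8:57487811-57488110 (Sap30) and chr6:148946421-148946720 (Sinhcaf, the upstream of 2 windows), and the plus-strand window at chr3:22076402-22076701 (Tbl1xr1).
Sap30: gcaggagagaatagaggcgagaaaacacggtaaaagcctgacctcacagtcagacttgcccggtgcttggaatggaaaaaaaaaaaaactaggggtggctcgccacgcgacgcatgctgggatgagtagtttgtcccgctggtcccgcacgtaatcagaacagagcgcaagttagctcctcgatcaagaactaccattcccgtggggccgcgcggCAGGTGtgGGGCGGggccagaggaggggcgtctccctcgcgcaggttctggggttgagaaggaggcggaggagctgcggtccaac
Sinhcaf: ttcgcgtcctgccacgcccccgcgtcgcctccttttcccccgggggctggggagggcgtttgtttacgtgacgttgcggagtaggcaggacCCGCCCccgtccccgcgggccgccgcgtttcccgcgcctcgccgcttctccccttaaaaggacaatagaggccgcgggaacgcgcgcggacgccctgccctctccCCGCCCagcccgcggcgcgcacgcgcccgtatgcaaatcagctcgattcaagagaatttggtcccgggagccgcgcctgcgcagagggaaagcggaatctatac
Tbl1xr1: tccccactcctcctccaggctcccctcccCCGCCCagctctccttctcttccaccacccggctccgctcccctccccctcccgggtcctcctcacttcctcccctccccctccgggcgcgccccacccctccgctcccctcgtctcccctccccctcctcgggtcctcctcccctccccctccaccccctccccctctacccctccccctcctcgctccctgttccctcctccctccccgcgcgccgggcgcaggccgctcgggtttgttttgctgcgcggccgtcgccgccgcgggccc
The GC box or its complement occurred 1 time in Sap30, 2 times in the Sinhcaf window shown and 1 time in Tbl1xr1. The other Sinhcaf window held it 3 times. It was found in 35.7% of all 32851 windows of 300 bases. Of the 30 listed genes with a window, 24 had it in 1 or more windows. These genes had 41 windows in all. Counts of genes take any window of a gene, and shares of all are per window, so they are not on 1 scale. CAGGTG occurred 1 time, in the Sap30 window, in 20.2% of all windows and in 3 of those 30 genes. CACGTG was in none of the 3 windows and in 7.15% of all. No motif overlapped another in these windows. The arrays measured RNA and no binding at these sequences, so a match is a description of letters.

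In PRC2, the subunit Eed spread over the widest range. Eed (probe 10565486), which reads the mark that the complex writes, had 0.161, 0.179, 0.170, 6.18 and 2.75 in crest, 1.00, 13.0 and 0.154 in mesoderm, and 1.73, 15.7 and 15.5 in neuroepithelium. Crest arrays 1 to 3 and mesoderm array 3 lay together below 0.25 of the reference, while all neuroepithelium arrays were above it. The tissues overlapped, and the crest minus neuroepithelium difference of -3.62 (SE 1.80) had an unadjusted p of 0.0755 in limma. A second Eed probe stayed between 0.888 and 1.24 on all 11 arrays, so the range rests on 1 of 2 probes.

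Ezh2 (probe 10544501), the methyltransferase, had 1.01, 1.12, 0.784, 0.210 and 1.28 in crest, 0.485, 0.647 and 1.00 in mesoderm, and 0.452, 1.11 and 1.88 in neuroepithelium. Its tissue means differed by -0.38 for crest minus neuroepithelium, 0.14 for crest minus mesoderm and -0.53 for mesoderm minus neuroepithelium (SE 0.66, 0.66 and 0.74). Suz12, which every PRC2 needs for assembly, stayed between 0.960 and 1.03. Its 3 mesoderm arrays were above its 3 neuroepithelium arrays by a log2 difference of only 0.06 (SE 0.03, limma unadjusted p = 0.109). Phf19, an accessory subunit that binds a methylated histone, stayed between 0.869 and 1.11, and Jarid2, a DNA-binding accessory subunit, reached 2.40 on mesoderm array 1.

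Phf13, a reader of methylated histone H3, differed little in size, with small spread within tissues. Its ratios (probe 10518847) were 1.05, 1.06, 1.30, 1.00 and 1.12 in crest, 0.71, 0.804 and 0.808 in mesoderm, and 1.08, 1.36 and 1.12 in neuroepithelium. All 3 mesoderm arrays were below all 8 others. The log2 difference was 0.51 (SE 0.10, limma unadjusted p = 0.000899, adjusted p = 1.00) for crest minus mesoderm and -0.61 (SE 0.12, limma unadjusted p = 0.000569, adjusted p = 1.00) for mesoderm minus neuroepithelium.

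Groups that did not overlap were counted against the share over all genes. For crest against neuroepithelium the count was 1 of 35 members (Sinhcaf, lower in crest), against 2.98% of genes in either direction, 1.45% higher and 1.53% lower. For crest against mesoderm it was 1 (Phf13, higher in crest), against 2.66% of genes, 1.46% higher and 1.2% lower. For mesoderm against neuroepithelium it was 5, against 6.85% of genes, with Sap18 and Suz12 higher in mesoderm (2.82% of genes) and Sinhcaf, Chd4 and Phf13 lower (4.02%). Means at least 1 apart on the log2 scale were found, in the same order of comparisons, for 7, 8 and 8 members, against 10.8%, 11.7% and 12.9% of all genes.

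**Figure D5:**
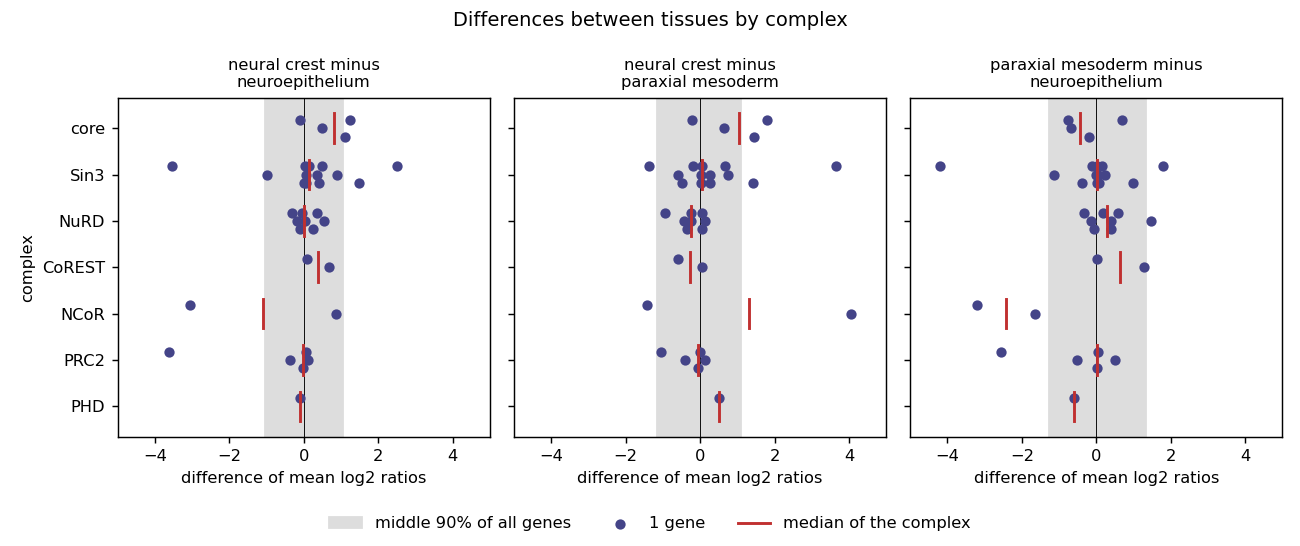
Difference of mean log2 ratios between tissues for each gene (points) by complex, with the median of the complex (red line) and the range of the middle 90% of all genes (grey). Most genes of Sin3, NuRD and PRC2 lie inside the grey band, and Sinhcaf, Tbl1xr1, Eed, Sap30 and Hdac3 are among those outside it in 1 or more comparisons.

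The 3 larger complexes had medians close to 0 in most comparisons. For crest minus neuroepithelium, the median log2 difference was 0.15 over the 13 Sin3 genes, -0.01 over the 8 NuRD genes and -0.03 over the 5 PRC2 genes, against 0.0005 over all genes. For crest minus mesoderm it was 0.04, -0.24 and -0.05, against 0.0024 over all genes. For mesoderm minus neuroepithelium it was 0.02, 0.28 and 0.02, against -0.0028 over all genes. The core had medians of 0.80, 1.05 and -0.44 over 4 genes, and 0 of its genes passed. The 2 measured NCoR genes lay in opposite directions in crest against mesoderm, Hdac3 at 4.06 and Tbl1xr1 at -1.42.

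Further subunits of these complexes, PRC1 and other deacetylases gave no call either. Of 55 listed genes 50 were measured, and 0 passed any comparison in limma, with 2, 1 and 3 at an unadjusted p under 0.05 in the order crest against neuroepithelium, crest against mesoderm and mesoderm against neuroepithelium, where 2.79%, 2.89% and 2.48% of all genes had such a p. They are Pcgf1, Zmym2 and Gse1, named here after their values were seen. Pcgf1, a PRC1 ring finger subunit, was at 0.966 to 1.09 in crest, 0.967 to 1.04 in mesoderm, and 17.4, 0.973 and 42.9 in neuroepithelium (crest minus neuroepithelium -3.14, SE 0.99, limma unadjusted p = 0.0118). Zmym2, a CoREST partner, was at 0.991 to 1.92 in crest, 0.955 to 1.05 in mesoderm, and 1.01, 8.33 and 10.4 in neuroepithelium (crest minus neuroepithelium -1.89, SE 0.68, limma unadjusted p = 0.0220). Its high arrays were those of Sinhcaf's largest values. Gse1, another CoREST partner, was at 0.946 to 1.25 in crest, 1.18 to 1.28 in mesoderm and 0.784 to 1.03 in neuroepithelium (mesoderm minus neuroepithelium 0.46, SE 0.12, limma unadjusted p = 0.00503). High on some array were 17 of the 50 (34%, against 21.7% of all genes), and low were 2 (4%, against 4.77%), namely Sap30l, the paralogue of Sap30, and Cdk2ap1. Sap30l had 0.0558, 4.51, 0.356, 0.625 and 0.461 in crest, 1.00, 1.42 and 0.261 in mesoderm, and 0.0612, 0.0600 and 2.58 in neuroepithelium, so it was not high on crest arrays 3 to 5, where Sap30 was.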

How the data were processed

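Expression in 11 laser-captured samples was measured on 1 array each. The submitters' processing notes name RMA and mm9, with no version of RMA. Each deposited value is a linear ratio of an array to a reference of the same probe. No source at hand says how it was made. The median ratio was 1 on 8 arrays, and 0.991, 1.006 and 1.001 on crest arrays 3 and 5 and neuroepithelium array 2. Of 28856 probes with values, 26141 stood at 1 (tolerance 1e-05) on 1 of those 8 arrays, with 3 or 4 others below. For these probes the reference was thus a middle value of the 8 arrays. A ratio of 1 on such an array marks the one that held it. Of 35557 probes, 6701 were blank, and 21789 of the rest carried 1 gene symbol, 1621 several and 5446 none. Symbols were checked by Entrez identifier against RefSeq (assembly GRCm38.p6). The ratios were taken to log2 with no pseudocount. Group means were fitted over all 11 arrays with lmFit and eBayes in limma 3.58.1 (R 4.3.3), without an intensity trend because ratios hold no intensity, and p-values were adjusted by Benjamini-Hochberg over 19938 genes. The fit was tested on simulated data with normal noise, which does not cover ratios that jump on single arrays as these do.

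The members, the gene lists and the naming rule were chosen with earlier results of these data known. By that rule a member is given on every array if it was 4-fold off its reference on some array, if its groups did not overlap with means at least 1 apart (log2), or if an unadjusted p was under 0.05, which held for 17 of 35 members. Alternatives changed the moderation, the arrays, the probes, the scaling, the floor, the pseudocount, the filter and the array weights. All 11 columns were mapped, and 0 were left over. Arrays correlated with each other at -0.0068 to 0.374 over all probes, so no array was a copy of another.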

Additional observations from a re-analysis of the deposited data

Results flagged for a closer look

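Among the 17 members given on every array, 9 had 1 crest array far from the other 4, by a gap of more than 0.71 of the group's range on the log2 scale. Chance gives about 1 such case in 20 groups only where values have a normal spread. Here 24.9% of all genes were 4-fold off their reference on some array. The share of all genes with such a gap was not computed, so whether 9 of 17 is unusual is not known. These members were also chosen in part for a large value on some array, so the number of cases is not evidence of its own. On crest array 1 the ratio of Sap18 was 4.23 (others 0.749 to 0.898), that of Sap30 was 0.765 (others 15.2 to 32.4) and that of Hdac3 was 0.357 (others 12.9 to 34.5). On crest array 3 Suds3 stood at 6.17 (others 0.812 to 1.25) and Kdm1a at 19.5 (others 0.808 to 1.46). On crest array 4 Ezh2 stood at 0.210 (others 0.784 to 1.28). On crest array 5 Brms1 stood at 21.7 (others 0.781 to 1.36), Mta3 at 3.74 (others 0.954 to 1.33) and Tbl1xr1 at 2.20 (others 0.771 to 1.00).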

How the results depend on the processing

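Of the 35 members, 0 passed any comparison between tissues in limma under 23 of the 24 settings, of which the filter for genes at least 2-fold off tested 23 of the members. The exception left out neuroepithelium array 1, where Sinhcaf passed both comparisons with neuroepithelium. None of the named differences of Sinhcaf, Tbl1xr1, Sap30, Hdac3 and Phf13 changed sign in any setting run. No setting used a second probe alone. The second Tbl1xr1 probe gave a crest minus neuroepithelium difference of the opposite sign, 0.74. The second Sinhcaf probe kept the sign, at -3.36 for crest minus neuroepithelium and -3.86 for mesoderm minus neuroepithelium. That filter gave no value for Phf13, and quantile normalization took its mesoderm minus neuroepithelium difference to -1.13. Counts over all genes were 6, 2 and 3 (crest against neuroepithelium, crest against mesoderm, mesoderm against neuroepithelium) and 6 among the 3 tissues. With the trend option of limma, which here follows the mean log2 ratio and no intensity, they were 2, 0 (588 at an unadjusted p under 0.05), 2 and 3. With only the arrays of the compared tissues the first was 11 and the third 5. Array weights raised the genes at an unadjusted p under 0.05 to 1074, 1456 and 1282, against 557, 577 and 495, and the members to 2, 5 and 3, against 2, 3 and 2. Leaving out 1 array gave 5 to 19, 1 to 43, 3 to 39 and 5 to 42. The first count moved by over 1.5 times without crest array 1 (11) or neuroepithelium array 1, 2 or 3 (14, 19 and 16). The second did so without crest array 1 or 3 (5 and 1), mesoderm array 1, 2 or 3 (4, 12 and 43) or neuroepithelium array 2 or 3 (1 each). The third did so without crest array 2 (5), mesoderm array 1, 2 or 3 (7, 14 and 39) or neuroepithelium array 1, 2 or 3 (10, 14 and 13). The count among the 3 tissues did so without mesoderm array 1, 2 or 3 (10, 18 and 42) or neuroepithelium array 1, 2 or 3 (13, 15 and 15). The cause was not tested. Same-numbered arrays did not deviate together (correlations -0.153 to 0.0505 over genes), so the numbers were not read as pairs. A fit with the replicate block over replicates 1 to 3 gave 6, 3, 2 and 5 calls, and crest minus mesoderm differences of 3.13 for Hdac3 (limma unadjusted p = 0.248) and 2.90 for Sap30 (0.0786); the same arrays with no block, a setting chosen after seeing the data, gave 9, 5, 3 and 8.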
